A study of Mus musculus with 16 samples.

Results

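The integrin and laminin chains are the genes that encode the alpha and beta subunits of integrins and the alpha, beta and gamma subunits of laminins. Members were matched by gene symbol, and 37 of the 24421 entries of the deposited count table matched, namely 18 integrin alpha chains, 8 integrin beta chains and 11 laminin chains. Their transcripts were measured by sequencing polyadenylated RNA from the ventricles of C57BL/6N mice labelled male, with 4 libraries in each of 4 groups. WT mice were wildtype littermates. JP2CR mice are homozygous for a Jph2 knock-in allele without the codons for residues 563 to 568 of junctophilin-2, which removes a site cut by the protease calpain. Each genotype had either a sham operation or transverse aortic constriction (TAC), a narrowing of the aorta that loads the left ventricle with pressure, at 9 to 10 weeks of age. Ventricles were taken 5 weeks after surgery, so the groups are WT sham, WT TAC, JP2CR sham and JP2CR TAC. The allele is present in all cells of the JP2CR mice and the sham operation was carried out in both genotypes, so each TAC comparison is made within a genotype.

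Integrins are heterodimers of one alpha and one beta chain that span the cell membrane and tie the actin cytoskeleton to the matrix outside the cell. The alpha chain largely sets which ligand is bound, such as collagen, fibronectin, laminin or a counter-receptor on another cell. Laminins are heterotrimers of one alpha, one beta and one gamma chain and form the sheet-like core of basement membranes, which surround every cardiomyocyte and underlie the endothelium. In striated muscle, laminin containing the Lama2 chain is held at the cell surface by the integrin made of the Itga7 and Itgb1 chains and by dystroglycan. Leukocytes carry integrins of their own, built around the Itgb2, Itga4 and Itgb7 chains.

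Library totals ran from 9966782 to 16609732 counts, and values are given as CPM, the counts scaled to a common library total after TMM normalization. A count of 3, taken as the floor, corresponded to 0.185 to 0.314 CPM. Cardiomyocyte markers were abundant in every library, with 8 markers summing to 59281 CPM or more. Jph2 itself lay between 589 and 750.0 CPM in all 16 libraries. A count per gene does not show the small deletion, so it does not check the genotype labels. Libraries JP2CR sham 3, JP2CR sham 4 and JP2CR TAC 4 held 189, 196 and 141 CPM of Xist, a transcript of the inactive X chromosome. The other 13 libraries held at most 0.266 CPM. The levels in the 3 libraries conflict with the label male, and the sex of the mice was not tested. No WT library is among them, so sex may be unbalanced in every comparison that uses JP2CR libraries. In library JP2CR sham 4 the atrial myosin light chain Myl7 was at 0.941 CPM, against 299 to 803 CPM in the other JP2CR sham libraries. Replicate 3 lay between replicates 1 and 2 for 99.2% of the 1231 genes that separated these replicates in WT TAC and for 98.1% of 1209 such genes in JP2CR TAC. The corresponding shares were 89.1% of 577 genes in WT sham and 16.5% of 170 genes in JP2CR sham. The WT TAC 3 and JP2CR TAC 3 libraries are called intermediate TAC libraries for this reason. Whether these 2 libraries, or WT sham 3, are independent of replicates 1 and 2 was not tested. If they are not, the SDs and p-values that count 4 libraries in their groups are too small. WT sham 3 was kept where the intermediate TAC libraries were left out.

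TAC was followed in both genotypes by higher transcript levels of the collagen receptor chains Itga1 and Itga11, the fibronectin receptor chain Itga5 and the vitronectin receptor chains Itgav and Itgb5. Chains that bind or form laminin changed in both directions, with Itga6 and Lama2 higher and Itga3, Itga7, Lama5 and Lamb3 lower in both genotypes. Itga9, a tenascin-C receptor chain, rose 2.18-fold in WT and 1.68-fold in JP2CR hearts, while Itga8, another fibronectin receptor chain, was 4.21-fold and 2.35-fold lower. Of the 37 chains, 33 had enough counts to be tested, among 13522 genes in all. The test was edgeR's quasi-likelihood F test, and a gene was called when its Benjamini-Hochberg adjusted p was under 0.05. In WT hearts 12 of the 33 chains were called higher and 5 lower after TAC, beside 21.1% of all tested genes called higher and 20.8% called lower. In JP2CR hearts 16 chains were called higher and 7 lower, beside 20.7% of all genes in each direction. The median log2 fold change of the 33 chains was 0.30 in WT and 0.48 in JP2CR, and over all 13522 genes it was -0.0009 and -0.0042. All 17 chains called in WT were also called in JP2CR in the same direction, with 12 higher and 5 lower. The sham and TAC values of 18 chains did not overlap in WT, beside 42% of all genes, and those of 17 chains did not overlap in JP2CR, beside 34.1% of all genes. In bulk tissue a change in the number of cells of a type and a change in RNA per cell cannot be told apart. Without the 3 libraries with Xist, the JP2CR comparison called 11 chains higher and 6 lower, and without the intermediate TAC libraries it called 12 higher and 7 lower. The calls lost were those of Itga11, Itga6, Itgal and Lama3 in both cases, and also Itga3 and Lama2 without the libraries with Xist. The WT comparison gave 12 higher and 6 lower, and 11 higher and 5 lower, under the same omissions.

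**Figure D1:**
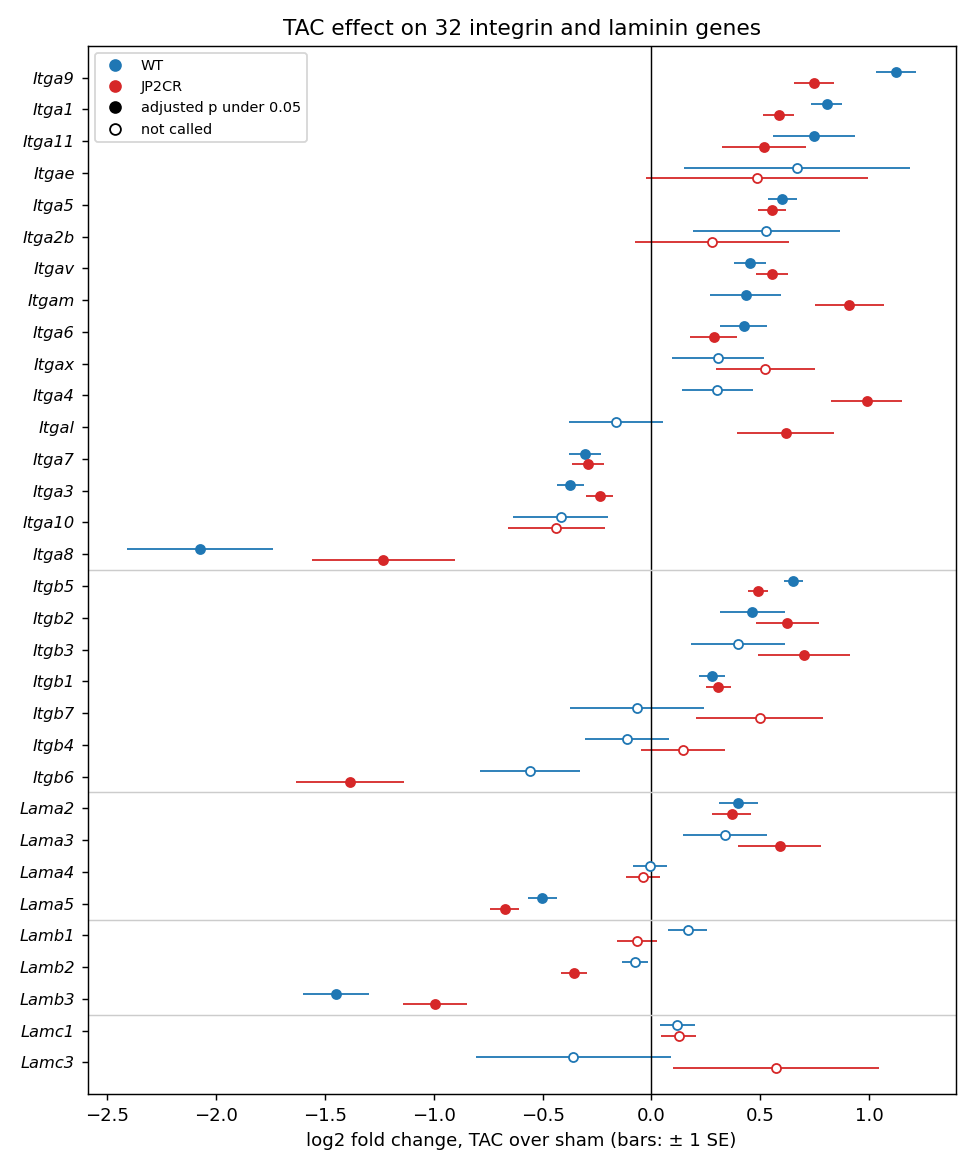
Log2 fold change after TAC of 32 of the 33 tested chains, in WT (blue) and JP2CR (red) hearts, with bars of 1 standard error and filled points where the adjusted p was under 0.05. Filled points in both colours lie on the same side of zero for 16 chains, from Itga9 at the upper end to Itga8 at the lower end.

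Levels of different genes can be compared only per length, so CPM was divided by the merged length of all annotated exons of each gene in kilobases. This length can exceed that of the transcripts present, which were not resolved. It is 8.09 kilobases for Itga7, 4.93 for Itga5 and 7.69 for Itga9, and other lengths would change the shares and ranks. On this scale 3 alpha chains made up most of the integrin alpha transcripts. In WT sham hearts Itga7, the principal alpha chain of cardiomyocytes, held 37.6% ± 2.0 (SD, n = 4) of the summed CPM per kilobase of the 18 alpha chains. Itga5, the alpha chain of the classical fibronectin receptor, held 20.2% ± 0.485, and Itga9, a receptor chain for tenascin-C and osteopontin, held 13.5% ± 0.409 (SD, n = 4 each). In WT TAC hearts the same shares were 24.9% ± 0.576 for Itga7, 25.1% ± 1.72 for Itga5 and 24.0% ± 2.12 for Itga9 (SD, n = 4 each). With these lengths, Itga7 led in sham hearts of both genotypes. In WT TAC hearts Itga7, Itga5 and Itga9 stood close together, while in JP2CR TAC hearts Itga9 lay below Itga7 and Itga5. The JP2CR shares went from 37.5% to 26.1% for Itga7, from 21.6% to 27.2% for Itga5 and from 13.9% to 19.8% for Itga9. Itgb1, the common partner of most of these alpha chains, held between 69.0% and 73.4% of the beta chain transcripts in the 4 groups. Itgb5, which pairs with Itgav, was the next beta chain with 21.8% to 27.3%.

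Among the laminins, Lama5 was the most abundant alpha chain per length in every group. Its share of the laminin alpha transcripts was 55.4% ± 1.35 in WT sham and 43.3% ± 3.42 in WT TAC hearts, and 56.8% ± 1.33 and 42.1% ± 5.08 in the JP2CR groups (SD, n = 4 each). Lama2, the muscle laminin chain, went from 21.2% to 30.7% in WT and from 19.9% to 30.5% in JP2CR hearts. Lamb2 made up 81.5% to 83.3% of the beta chain transcripts and Lamc1 93.8% to 96.1% of the gamma chain transcripts. The leading chains per length were Lama5, Lamb2 and Lamc1 in all 4 groups.

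**Figure D2:**
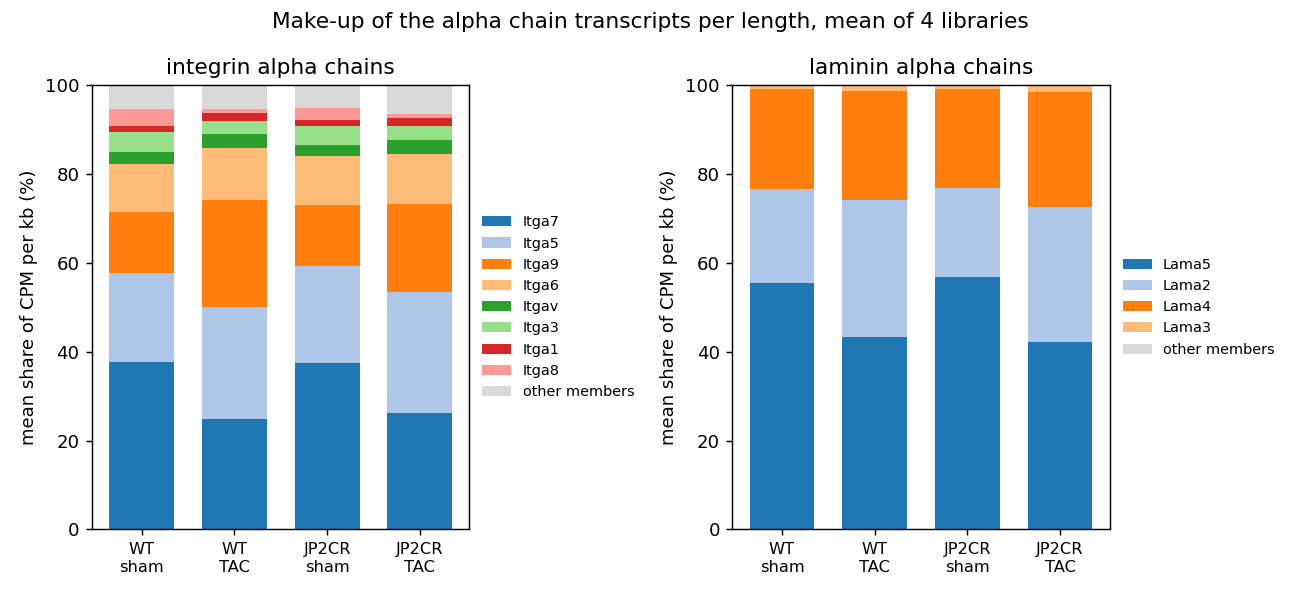
Mean share (%) of each alpha chain in the summed CPM per kilobase of its class, for integrin alpha chains (left) and laminin alpha chains (right), in the 4 groups of 4 libraries. The Itga7 and Lama5 segments are shorter and the Itga9 and Lama2 segments longer in both TAC columns than in the sham columns.

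Itga9 was the chain with the largest called rise in WT hearts, and its gene lies at chr9:118606690-118901003 (GRCm38). Its values were 99.0, 97.2, 103 and 97.1 CPM in WT sham libraries 1 to 4 and 183, 254, 225 and 200.2 CPM in WT TAC libraries 1 to 4. In JP2CR hearts they were 101, 98.6, 104 and 94.6 CPM after sham surgery and 144, 195, 168 and 161 CPM after TAC. No TAC library came near a sham library in either genotype. The log2 fold change was 1.12 ± 0.09 (SE) in WT, with an adjusted p of 5.29e-08 by edgeR's quasi-likelihood test, and 0.75 ± 0.09 in JP2CR, with an adjusted p of 6.21e-06.

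The fibronectin and vitronectin receptor chains Itga5, Itgav and Itgb5 rose in both genotypes. Itga5 had 93.4, 97.1, 92.8 and 95.3 CPM in WT sham and 146, 144, 138 and 146 CPM in WT TAC libraries. In JP2CR the Itga5 values were 96.8, 100.01, 113 and 88.4 CPM after sham and 139, 162, 145 and 139.9 CPM after TAC. The groups did not overlap, and the log2 fold changes were 0.60 ± 0.07 and 0.55 ± 0.07 (SE), with adjusted p of 1.31e-06 and 4.50e-06 by edgeR's quasi-likelihood test. Itgav, the alpha chain shared by the vitronectin receptors, had 31.4, 27.3, 29.3 and 26.6 CPM in WT sham and 36.7, 39.4, 40.5 and 39.9 CPM in WT TAC libraries. It had 27.9, 24.6, 22.3 and 28.4 CPM in JP2CR sham and 39.3, 37.7, 36.4 and 37.8 CPM in JP2CR TAC libraries. Every TAC library lay above every sham library of its genotype, and the log2 fold changes were 0.45 ± 0.07 and 0.55 ± 0.07 (SE), with adjusted p of 8.66e-05 and 1.55e-05 by the edgeR test. Its partner Itgb5 gave the smallest p of all 33 chains in both genotypes. Itgb5 had 145, 141, 143 and 154 CPM in WT sham, 224, 232, 233 and 227 CPM in WT TAC, 146, 147, 135 and 137 CPM in JP2CR sham and 197, 205, 203 and 189 CPM in JP2CR TAC libraries. All TAC values lay well above all sham values, and the WT TAC values lay above the JP2CR TAC values. The log2 fold changes of Itgb5 were 0.65 ± 0.04 and 0.49 ± 0.04 (SE), with adjusted p of 8.77e-09 and 3.27e-07 by the edgeR test.

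Itgb3, the other classical vitronectin receptor beta chain, was much less abundant. It had 5.12, 4.41, 3.18 and 4.16 CPM in WT sham and 4.73, 5.58, 5.36 and 6.58 CPM in WT TAC libraries, which overlapped. In JP2CR it had 5.49, 3.20, 5.55 and 2.93 CPM after sham and 9.50, 6.13, 7.18 and 5.88 CPM after TAC, without overlap. Its log2 fold change was 0.40 ± 0.22 (SE) in WT, with an adjusted p of 0.150 by edgeR, and 0.70 ± 0.21 in JP2CR, with an adjusted p of 0.0128. Without library JP2CR TAC 1 the JP2CR value was 0.54 with an adjusted p of 0.0550. Platelets also carry Itgb3, and 8 platelet and megakaryocyte markers summed to 8.64 to 12.4 CPM over the WT libraries, 9.24 to 11.7 CPM in JP2CR sham and 12.3 to 13.5 CPM in JP2CR TAC libraries. Their part in the Itgb3 result was not tested.

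The collagen receptor chains Itga1 and Itga11 were called higher as well. Itga1, a collagen receptor chain that favours basement membrane collagen, had 25.6, 21.2, 23.9 and 23.8 CPM in WT sham and 39.2, 44.4, 42.8 and 38.3 CPM in WT TAC libraries. In JP2CR hearts Itga1 had 26.2, 26.2, 23.9 and 22.1 CPM after sham and 37.8, 38.2, 35.99 and 35.9 CPM after TAC. The lowest TAC value exceeded the highest sham value in both genotypes. Its log2 fold changes were 0.80 ± 0.07 and 0.59 ± 0.07 (SE), with adjusted p of 1.25e-07 and 5.98e-06 by edgeR's quasi-likelihood test. Itga11, the fibrillar collagen receptor chain of fibroblasts, had 4.53, 5.84, 5.78 and 6.58 CPM in WT sham and 6.74, 13.2, 9.30 and 8.91 CPM in WT TAC libraries. It had 4.49, 6.41, 4.50 and 6.90 CPM in JP2CR sham and 7.86, 8.39, 8.42 and 6.75 CPM in JP2CR TAC libraries. The WT groups did not overlap, and in JP2CR the library TAC 4 lay below the library sham 4. The log2 fold changes were 0.75 ± 0.19 and 0.52 ± 0.19 (SE), with adjusted p of 0.00377 and 0.0407 by the edgeR test. Leaving out the 3 libraries with Xist gave an adjusted p of 0.0612 in JP2CR, and the call also ended in 6 of the 16 single-library omissions, those of WT TAC 3, JP2CR sham 1 and 3 and JP2CR TAC 1, 2 and 3. Itga10, another collagen receptor chain, was not called in either genotype, with log2 fold changes of -0.42 and -0.44, and its exons share 33.5% of their length with the annotated gene Gm42957 on the same strand, so its reads may be shared. Without library WT TAC 2 the WT value of Itga10 was -0.67 with an adjusted p of 0.0184 by edgeR. Fibroblast markers, of which 10 were tested, were called in both directions, with 3 higher and 3 lower in WT and 3 higher and 4 lower in JP2CR hearts.

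Itgb1, the beta chain shared by the collagen, fibronectin and laminin receptors, rose by less. It had 590.3, 512, 566 and 527 CPM in WT sham and 621, 689, 657 and 694 CPM in WT TAC libraries. It had 552, 592, 520.1 and 527 CPM in JP2CR sham and 669, 722, 685 and 636 CPM in JP2CR TAC libraries. The groups did not overlap in either genotype although the gaps were small, and the log2 fold changes were 0.28 ± 0.06 and 0.31 ± 0.06 (SE), with adjusted p of 9.30e-04 and 4.26e-04 by edgeR's quasi-likelihood test.

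**Figure D3:**
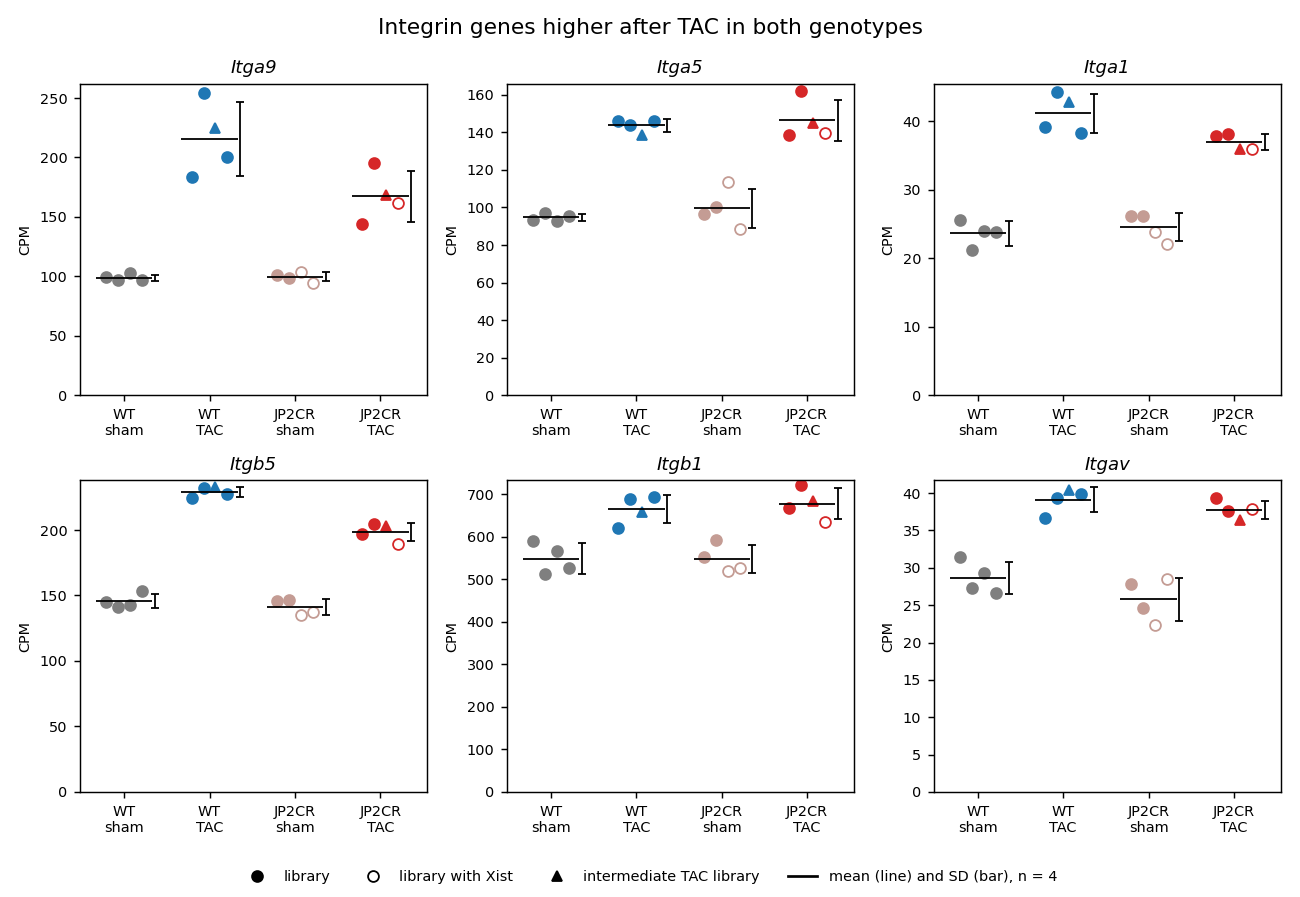
CPM of 6 chains called higher after TAC in both genotypes, 1 point per library, with the mean as a line and the SD as a bar (n = 4), open points for libraries with Xist and triangles for intermediate TAC libraries. In each panel the lowest TAC point of a genotype lies above its highest sham point.

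The DNA in front of the strongest risers and fallers is shown for the chains whose differences were clearest. For each direction, the windows are those of the chains with the smallest p in WT hearts that were called in both genotypes and whose window holds the annotated start of the gene. Windows were taken from RefSeq (GRCm38.p6) and run from 250 bases before to 50 bases after the transcription start, written 5′ to 3′ on the gene's strand. Capitals mark matches to GGGCGG on either strand, the core letters of the binding motif of the general factor SP1, of which Itgb5 holds 3 and Itga1 none. The Itgb5 window is chr16:33829415-33829714 on the plus strand and the Itga1 window is chr13:115101915-115102214 on the minus strand.
Itgb5: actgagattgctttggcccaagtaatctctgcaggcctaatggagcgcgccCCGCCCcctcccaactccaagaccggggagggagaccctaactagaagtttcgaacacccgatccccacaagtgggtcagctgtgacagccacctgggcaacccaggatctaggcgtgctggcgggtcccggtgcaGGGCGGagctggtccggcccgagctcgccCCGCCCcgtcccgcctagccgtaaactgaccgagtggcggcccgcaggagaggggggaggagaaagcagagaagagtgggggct
Itga1: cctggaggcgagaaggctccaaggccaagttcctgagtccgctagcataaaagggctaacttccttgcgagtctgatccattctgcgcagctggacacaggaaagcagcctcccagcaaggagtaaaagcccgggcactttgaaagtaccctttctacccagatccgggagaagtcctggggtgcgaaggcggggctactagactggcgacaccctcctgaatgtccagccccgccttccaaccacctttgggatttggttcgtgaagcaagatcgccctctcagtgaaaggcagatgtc

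The laminin-binding integrin chains moved in different directions. Itga7 had 271, 301, 283 and 303 CPM in WT sham and 224, 244, 243 and 226 CPM in WT TAC libraries. In JP2CR hearts it had 278, 278, 273 and 305 CPM after sham and 192, 257, 226 and 251 CPM after TAC. All TAC values lay below all sham values of the same genotype, and the log2 fold changes were -0.31 ± 0.07 and -0.29 ± 0.07 (SE), with adjusted p of 0.00298 and 0.00450 by edgeR's quasi-likelihood test. The 8 cardiomyocyte markers, among which Itga7 is not listed, had median log2 fold changes of -0.33 and -0.37. In each genotype 5 of the 8 markers were called lower, and 1 was called higher in WT. Their part in the Itga7 result was not tested. Itga3, found in epithelia and vessels, fell in both genotypes. Its range was 23.1 to 25.8 CPM in WT sham, 17.6 to 20.1 CPM in WT TAC, 21.7 to 22.8 CPM in JP2CR sham and 17.9 to 20.3 CPM in JP2CR TAC libraries, with log2 fold changes of -0.37 and -0.24 and adjusted p of 1.29e-04 and 0.00606 by edgeR. Without the 3 libraries with Xist the JP2CR value of Itga3 was -0.20 with an adjusted p of 0.0950. Itga6, a laminin receptor chain of endothelium and epithelium, was at 87.5 to 99.3 CPM in WT sham and rose to a range of 114 to 138 CPM in WT TAC libraries. The JP2CR range of Itga6 was 68.3 to 104 CPM after sham and 100.1 to 127 CPM after TAC, with overlap. Its log2 fold changes were 0.42 and 0.29, with adjusted p of 0.00390 and 0.0410 by edgeR, and without library JP2CR sham 3 the JP2CR value was 0.17 with an adjusted p of 0.114. That call was also lost without JP2CR sham 4, JP2CR TAC 2 or 3, or WT TAC 3 or 4, with adjusted p of 0.0501 to 0.140. Itgb4, the epithelial partner of Itga6, was not called in either genotype, with log2 fold changes of -0.11 and 0.14. The 10 endothelial markers summed to 1501 to 1565 CPM in WT sham and 1374 to 1639 CPM in WT TAC libraries. Their sums were 1606 to 1685 CPM in JP2CR sham and 1485 to 1628 CPM in JP2CR TAC libraries. After TAC 0 of the 10 were called in WT, and 2 were called higher and 2 lower in JP2CR hearts. Their part in the Itga6 result was not tested.

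Itga8, a receptor chain for nephronectin and fibronectin, had the largest called fall in WT hearts. It had 41.6, 15.3, 28.1 and 22.1 CPM in WT sham and 5.42, 5.98, 7.62 and 6.26 CPM in WT TAC libraries, a complete separation. In JP2CR it had 26.7, 19.9, 19.1 and 8.99 CPM after sham and 5.54, 9.36, 5.02 and 12.1 CPM after TAC, where library sham 4 lay below libraries TAC 2 and TAC 4. The log2 fold changes were -2.07 ± 0.33 and -1.23 ± 0.33 (SE), with adjusted p of 8.53e-05 and 0.00613 by edgeR's quasi-likelihood test. Without the 3 libraries with Xist the JP2CR value was -1.83. Atrial markers other than Nppa moved the same way, from 1543 to 2514 CPM in WT sham to 121 to 355 CPM in WT TAC libraries. In JP2CR they summed to 1655, 1221, 2386 and 212 CPM in sham libraries 1 to 4 and to 460.1 to 718 CPM after TAC. The lowest JP2CR sham library for Itga8, sham 4, was also the lowest for these atrial markers. In WT sham libraries 1 to 4 they summed to 1543, 2514, 2028 and 2266 CPM, the reverse of the order of Itga8. The part of atrial tissue in the Itga8 result was not tested. Of the 10 atrial markers, Nppa included, 1 was called higher and 9 lower in WT, and 5 were called lower in JP2CR hearts. Smooth muscle and pericyte markers, of which 10 were tested, were lower for 7 genes in WT and 5 in JP2CR hearts. In WT sham libraries 1 to 4 they summed to 1788, 1454, 1591 and 1567 CPM, in the order of Itga8. The JP2CR sham sums of 1706, 1634, 1665 and 1679 CPM did not follow its order. Their part in the Itga8 result was not tested.

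Itgb6, an epithelial beta chain that pairs with Itgav and activates latent TGF-beta, was also low after TAC. It had 36.3, 34.0, 36.2 and 32.6 CPM in WT sham and 15.8, 32.5, 24.4 and 21.3 CPM in WT TAC libraries. The JP2CR values were 38.7, 42.5, 17.9 and 22.0 CPM after sham and 9.95, 13.4, 9.73 and 13.1 CPM after TAC. All JP2CR TAC values lay below all other libraries, and the sham values of JP2CR fell into a high and a low pair, the low pair being the libraries with Xist. The log2 fold change was -0.56 ± 0.23 (SE) in WT, with an adjusted p of 0.0593 by edgeR, and -1.39 ± 0.25 in JP2CR, with an adjusted p of 2.61e-04. Without the 3 libraries with Xist the JP2CR value was -1.88. The WT difference passed the threshold in 7 alternative settings, among them the omission of those same 3 libraries (adjusted p = 0.00555 by edgeR).

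**Figure D4:**
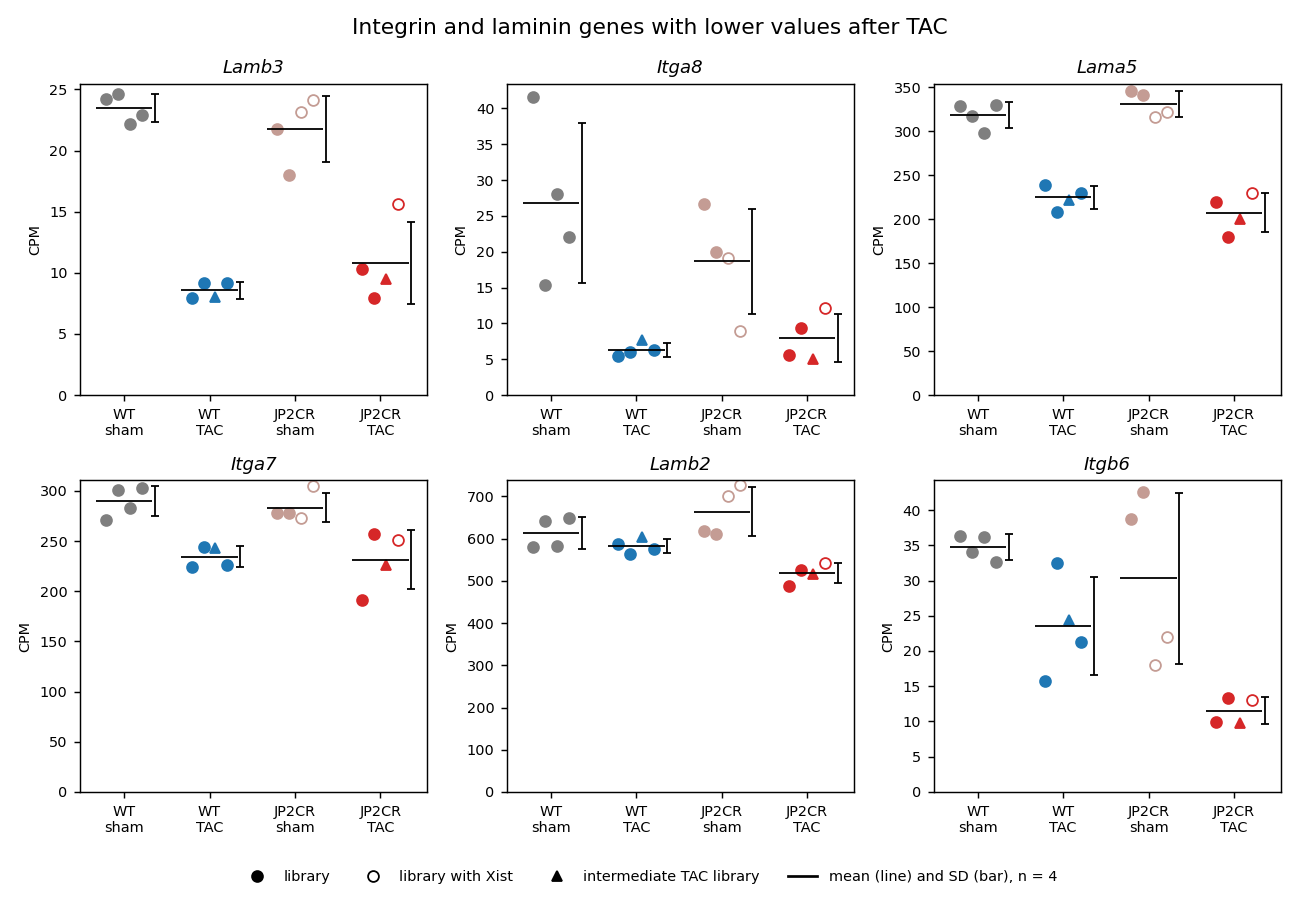
CPM of 6 chains with lower values after TAC, 1 point per library, with the mean as a line and the SD as a bar (n = 4), open points for libraries with Xist and triangles for intermediate TAC libraries. Lamb3, Lama5 and Itga7 separate sham from TAC in both genotypes, Itga8 overlaps in JP2CR, Lamb2 separates in JP2CR alone, and the open JP2CR sham points of Itgb6 lie below the filled ones.

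The laminin alpha chains changed in different directions. Lama5, a chain of vascular and epithelial basement membranes, had 328, 317, 297 and 329 CPM in WT sham and 239, 208, 222 and 229.8 CPM in WT TAC libraries. It had 346, 341, 316 and 321 CPM in JP2CR sham and 219, 179.8, 201 and 229 CPM in JP2CR TAC libraries. Every TAC value lay below every sham value, and the log2 fold changes were -0.50 ± 0.07 and -0.67 ± 0.07 (SE), with adjusted p of 1.26e-05 and 8.16e-07 by edgeR's quasi-likelihood test. Lama2 was at 169 to 179 CPM in WT sham and rose to a range of 206 to 259 CPM in WT TAC libraries. The JP2CR range of Lama2 was 149 to 189 CPM after sham and 185 to 248 CPM after TAC, with overlap. Its log2 fold changes were 0.40 ± 0.09 and 0.37 ± 0.09 (SE), with adjusted p of 0.00160 and 0.00317 by edgeR, and without the 3 libraries with Xist the JP2CR value was 0.25 with an adjusted p of 0.0704. Lama4, the endothelial laminin chain, had log2 fold changes of -0.01 ± 0.08 and -0.04 ± 0.08 (SE) and was not called.

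The promoter windows of the 2 fallers chosen by the rule given above are those of Lama5, chr2:180225810-180226109 on the minus strand, and Itga8, chr2:12301895-12302194 on the minus strand. Capitals again mark GGGCGG on either strand, of which Lama5 holds 4 and Itga8 none.
Lama5: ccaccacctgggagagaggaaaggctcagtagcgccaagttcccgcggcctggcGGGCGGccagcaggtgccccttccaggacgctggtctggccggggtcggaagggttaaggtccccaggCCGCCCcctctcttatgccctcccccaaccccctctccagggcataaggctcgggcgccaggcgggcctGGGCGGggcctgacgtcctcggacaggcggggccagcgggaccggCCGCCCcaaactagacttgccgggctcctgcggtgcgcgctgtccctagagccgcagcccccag
Itga8: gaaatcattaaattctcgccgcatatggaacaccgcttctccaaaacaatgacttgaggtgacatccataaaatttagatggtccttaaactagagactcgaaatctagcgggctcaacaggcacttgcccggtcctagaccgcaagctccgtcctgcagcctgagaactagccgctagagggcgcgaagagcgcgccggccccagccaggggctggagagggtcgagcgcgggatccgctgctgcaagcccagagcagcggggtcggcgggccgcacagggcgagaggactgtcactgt

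Lamb3 and Lama3 are chains of the laminin that anchors epithelia, and they did not move together. The Lamb3 gene lies at chr1:193207699-193343878 (GRCm38). Lamb3 had 24.3, 24.6, 22.1 and 22.9 CPM in WT sham and 7.90, 9.16, 8.04 and 9.15 CPM in WT TAC libraries. It had 21.7, 18.0, 23.1 and 24.2 CPM in JP2CR sham and 10.3, 7.91, 9.50 and 15.6 CPM in JP2CR TAC libraries. The groups were separate in both genotypes, with log2 fold changes of -1.45 ± 0.15 and -0.99 ± 0.15 (SE) and adjusted p of 8.21e-07 and 4.73e-05 by edgeR. Library JP2CR sham 4, the lowest of its group in atrial markers other than Nppa, held the highest Lamb3 value of its group. In JP2CR sham 1 to 3 the same markers, at 1655, 1221 and 2386 CPM, ranked as Lamb3 did. JP2CR TAC 4 was the highest of its group in both. In JP2CR TAC 1 to 3 the sums of 460, 537 and 502 CPM ran in the reverse of the order of Lamb3. The WT TAC sums of libraries 1 to 4, at 355, 121, 244 and 142 CPM, were also the reverse of its order. The WT sham sums did not follow the order of Lamb3. The part of atrial tissue in the Lamb3 result was not tested. Lama3 had 6.04, 4.04, 5.21 and 4.71 CPM in WT sham and 5.04, 8.10, 5.45 and 6.42 CPM in WT TAC libraries, which overlapped. In JP2CR Lama3 had 5.35, 5.95, 3.70 and 5.12 CPM after sham and 9.50, 6.45, 8.03 and 6.02 CPM after TAC, without overlap. Its log2 fold changes were 0.34 ± 0.19 and 0.59 ± 0.19 (SE), with adjusted p of 0.170 and 0.0199 by edgeR, and without library JP2CR TAC 1 the JP2CR value was 0.45 with an adjusted p of 0.0775. Without JP2CR sham 3 it was 0.46 with an adjusted p of 0.0691, without JP2CR TAC 3 it was 0.55 with an adjusted p of 0.0501, and without the 3 libraries with Xist 0.51 with an adjusted p of 0.0824.

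Some markers of mesothelium, nerve and fat were lower after TAC as well, and their values stand here beside those of Lamb3, Itga3, Itga8 and Itgb6. Of 7 mesothelial and epicardial markers, 2 were called lower in WT and 1 in JP2CR hearts, with median log2 fold changes of -0.57 and 0.10. These 7 summed to 72.1 to 80.5 CPM in WT sham and to 82.0, 25.7, 57.6 and 31.8 CPM in WT TAC libraries 1 to 4, and to 61.5 to 78.6 CPM in JP2CR sham and 60.2 to 73.3 CPM in JP2CR TAC libraries. Of 6 tested Schwann cell and nerve markers, 4 were called lower and 1 higher in each genotype, with medians of -1.02 and -0.72. Their summed level, over 8 markers, was 92.2 to 101.3 CPM in WT sham, 83.5 to 94.2 CPM in WT TAC, 80.8 to 114.8 CPM in JP2CR sham and 106.7 to 120.6 CPM in JP2CR TAC libraries. Of 10 adipocyte markers, 9 were called lower in WT hearts, where 2 were at 0 in all 4 TAC libraries, and none was called in JP2CR hearts by edgeR, where 1, Retn, had an unadjusted p under 0.05 with a higher level after TAC. The median log2 fold change of the 10 adipocyte markers was -6.18 in WT and -0.42 in JP2CR hearts. These markers summed to 397 to 684 CPM in WT sham and 348 to 419.7 CPM in WT TAC libraries. Their sums were 348 to 756 CPM in JP2CR sham and 472 to 617 CPM in JP2CR TAC libraries. The part of these cell types in the results on the 4 chains was not tested.

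Lamb2 and Lamc1 are the common beta and gamma chains of the heart. Lamb2 had 581, 642, 582 and 649.8 CPM in WT sham and 588, 564, 603 and 576 CPM in WT TAC libraries. It had 619, 610.4, 700.1 and 726 CPM in JP2CR sham and 487, 527, 516 and 543 CPM in JP2CR TAC libraries. The WT groups overlapped and the JP2CR groups did not, with log2 fold changes of -0.07 ± 0.06 and -0.36 ± 0.06 (SE) and adjusted p of 0.338 and 1.41e-04 by edgeR. Lamc1 had 312, 309, 303 and 309 CPM in WT sham and 279.9, 386, 341 and 331 CPM in WT TAC libraries. It had 302, 294, 326 and 309 CPM in JP2CR sham and 294, 379.6, 329.9 and 338 CPM in JP2CR TAC libraries. Its groups overlapped in both genotypes and it was not called, with log2 fold changes of 0.12 ± 0.08 and 0.12 ± 0.08 (SE). Without library WT TAC 1 the WT value of Lamc1 was 0.19 with an adjusted p of 0.0403 by edgeR. Lamb1, the other widespread beta chain, had log2 fold changes of 0.17 and -0.07, and Lamc3, a minor gamma chain, had -0.36 and 0.57, and neither was called. Lamc3 was at 0.105 CPM in library JP2CR sham 4, under its floor of 0.314 CPM, and at 2.79 to 4.03 CPM in WT sham libraries.

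The leukocyte integrin chains were higher after TAC in several cases. Itgam, the alpha chain of the myeloid complement receptor, had 7.72, 7.02, 5.70 and 6.65 CPM in WT sham and 9.99, 8.57, 8.96 and 9.07 CPM in WT TAC libraries. In JP2CR hearts it had 5.92, 5.76, 8.08 and 9.10 CPM after sham and 17.5, 11.1, 13.4 and 12.03 CPM after TAC. The groups did not overlap in either genotype, with log2 fold changes of 0.43 ± 0.16 and 0.91 ± 0.16 (SE) and adjusted p of 0.0393 and 1.93e-04 by edgeR's quasi-likelihood test. The WT call of Itgam was lost in 6 of the 16 single-library omissions, those of WT sham 2, 3 and 4 and WT TAC 1, 3 and 4, with adjusted p up to 0.111 without WT sham 3. Its exons share 68.7% of their length with the annotated gene Gm49368 on the same strand, so reads may be shared. Itgb2, the beta chain of leukocyte integrins, had 6.88, 6.33, 5.94 and 7.55 CPM in WT sham and 11.1, 9.30, 7.71 and 8.75 CPM in WT TAC libraries. It had 6.99, 7.05, 7.59 and 9.62 CPM in JP2CR sham and 13.4, 11.3, 13.9 and 9.36 CPM in JP2CR TAC libraries, where TAC 4 lay below sham 4. The log2 fold changes of Itgb2 were 0.46 ± 0.15 and 0.62 ± 0.14 (SE), with adjusted p of 0.0178 and 0.00226 by edgeR, and the WT call was lost without WT TAC 1 (adjusted p = 0.0675) or WT sham 3 (0.0540).

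Itga4, which binds the endothelial adhesion molecule Vcam1, had 4.20, 3.35, 3.99 and 4.16 CPM in WT sham and 4.11, 5.25, 5.11 and 4.82 CPM in WT TAC libraries. In JP2CR it had 3.42, 3.66, 3.45 and 2.51 CPM after sham and 8.16, 5.49, 7.26 and 5.28 CPM after TAC. The WT groups overlapped and the JP2CR groups did not, with log2 fold changes of 0.30 ± 0.16 and 0.99 ± 0.16 (SE) and adjusted p of 0.148 and 1.20e-04 by edgeR. Itgal, the alpha chain of the lymphocyte integrin that binds ICAM, had 3.52, 4.22, 3.01 and 3.95 CPM in WT sham and 4.49, 2.46, 3.52 and 2.81 CPM in WT TAC libraries. In JP2CR Itgal had 2.57, 3.20, 2.04 and 3.14 CPM after sham and 5.24, 3.07, 4.71 and 3.48 CPM after TAC, with overlap in both genotypes. Its log2 fold changes were -0.16 ± 0.22 and 0.62 ± 0.22 (SE), with adjusted p of 0.582 and 0.0332 by edgeR, and the JP2CR call was lost without JP2CR sham 1 or 3 or JP2CR TAC 1 or 3, with adjusted p up to 0.112 without JP2CR TAC 1. Itgax, a chain of dendritic cells and macrophages, Itgae, a chain of tissue-resident lymphocytes, and Itgb7, the partner of Itga4 and Itgae, were not called in either genotype. They passed, Itgb7 aside, in JP2CR when 1 library was left out, Itgax without sham 2 (adjusted p = 0.0200 by edgeR) or TAC 3 (0.0470) and Itgae without sham 3 (0.0406). The log2 fold changes in WT and JP2CR were 0.31 and 0.52 for Itgax, 0.67 and 0.48 for Itgae, and -0.07 and 0.50 for Itgb7.

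Leukocyte markers moved beside these chains. The 12 macrophage markers summed to 362 to 397 CPM in WT sham and 471 to 517 CPM in WT TAC libraries. Their sums were 371 to 462 CPM in JP2CR sham and 542 to 633 CPM in JP2CR TAC libraries. In each genotype 9 of the 12 were called higher, and 1 was called lower in WT. Between genotypes after TAC, 2 of the 12 were called higher in JP2CR, and 1 was called higher in the interaction. The 12 lymphocyte markers summed to 38.8 CPM in JP2CR TAC 1 and 21.6 CPM in JP2CR TAC 3, against 7.58 and 5.48 CPM in JP2CR TAC 2 and 4. Of these 12 markers 4 had enough counts to be tested, and the T cell marker Cd3e was at 0.299, 0.161, 0.232 and 0.334 CPM in JP2CR TAC 1 to 4. Itgal, Itga4 and Itgb7 were also highest in JP2CR TAC 1 and 3 among the JP2CR TAC libraries. The same held for Itgam, Itgb2, Itgb3, Lama3 and the macrophage sum. JP2CR TAC 3 is an intermediate TAC library, and whether it is independent of JP2CR TAC 1 was not tested. The 7 neutrophil markers in the table summed to at most 3.44 CPM in sham, 4.12 to 10.1 CPM in WT TAC and 5.48 to 18.7 CPM in JP2CR TAC libraries. The part of leukocyte number in these integrin results was not tested.

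**Figure D5:**
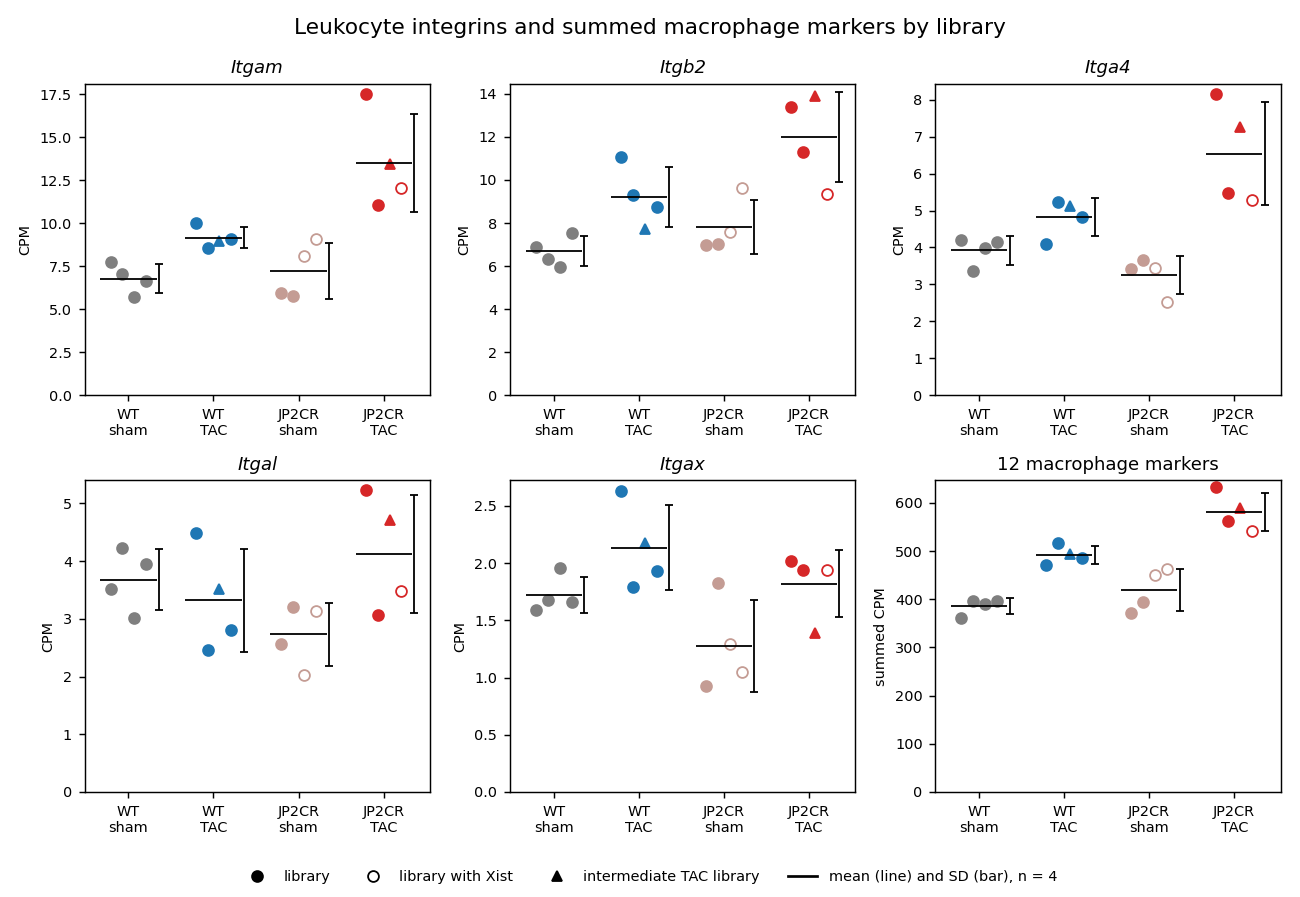
CPM of 5 leukocyte integrin chains and the summed CPM of 12 macrophage markers, 1 point per library, with the mean as a line and the SD as a bar (n = 4), open points for libraries with Xist and triangles for intermediate TAC libraries. The macrophage sum of every TAC library lies above every sham library of its genotype, and Itgam separates the same way, while Itgal overlaps.

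The platelet chain Itga2b was tested and not called, with log2 fold changes of 0.53 ± 0.34 and 0.28 ± 0.35 (SE). The 4 chains that did not pass the filter on low counts were Itga2, Itgad, Itgb8 and Lama1. Itga2, a collagen receptor chain, reached at most 1.01 CPM in any library, Itgad at most 0.314 CPM, Itgb8 at most 0.823 CPM and Lama1 at most 0.232 CPM. Itgb8 was at 0 to 0.185 CPM in JP2CR sham and 0.154 to 0.823 CPM in JP2CR TAC libraries, most of them near the floor.

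The genotypes were compared through the difference between their TAC effects, which is the interaction of genotype and surgery. None of the 33 chains was called by edgeR, beside 0.118% of all genes, and none by DESeq2. An unadjusted p under 0.05 was reached by 9 of the 33 chains, beside 10.3% of all genes. The smallest adjusted p was 0.192 for Lamb2, with a difference of -0.28 ± 0.08 (SE, JP2CR minus WT, log2) by edgeR. Itga4 followed with 0.69 ± 0.23 and Itga9 with -0.38 ± 0.13, with adjusted p of 0.265 and 0.270 by edgeR. For Itgb6 the difference was -0.83 ± 0.34 with an adjusted p of 0.380, and without the 3 libraries with Xist it was -1.32 with an adjusted p of 0.0108 by edgeR. The chains called in JP2CR alone, Itga4, Itgal, Itgb3, Lama3, Itgb6 and Lamb2, are therefore not shown to respond differently in the 2 genotypes. In simulated counts of the same depth, 56.7% of 1.5-fold differences between the TAC effects and 80.6% of 2-fold differences were recovered, so smaller differences could go undetected. Differences were placed only in genes with a mean of at least 2 CPM, so chains below that level are not covered.

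After sham surgery no chain was called between JP2CR and WT by edgeR or by DESeq2, beside 0.0961% of all genes, and none had an unadjusted p under 0.05, beside 7.97% of all genes. The smallest adjusted p was 0.636 for Itgal by edgeR. After TAC 1 chain was called lower in JP2CR than in WT, beside 0.651% of all genes, and it was Itgb5 with a log2 difference of -0.21 ± 0.04 (SE, edgeR adjusted p = 0.0420). The JP2CR TAC values of Itgb5, 189 to 205 CPM, lay below the WT TAC values of 224 to 233 CPM. The call depended on the libraries used, since it was lost in 11 of the 16 single-library omissions, all but those of WT TAC 1, JP2CR sham 2, 3 and 4 and JP2CR TAC 2, and, with an adjusted p of 0.275, without the intermediate TAC libraries. The adjusted p of Itgb5 ranged from 0.00109 to 0.275 over all alternatives. Next came Itgb6 with -1.03 ± 0.25 and Itga9 with -0.37 ± 0.09, both with an adjusted p of 0.0699 by edgeR, and Itgam with 0.56 ± 0.15 and an adjusted p of 0.1002. Itgb6 passed without WT TAC 1, JP2CR sham 2 or JP2CR sham 3, and Itga9 without WT TAC 1, JP2CR sham 3 or JP2CR TAC 2. DESeq2 called Itgb5, Itgb6 and Itga9 lower and Itgam higher in JP2CR TAC hearts.

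Genes that work with these chains were read from 3 lists. The ligands that integrins bind, fibrillar collagens and soluble matrix proteins, had 18 of 24 listed genes tested. Of these 12 were called higher and 2 lower in WT, with a median log2 fold change of 0.67, and 11 higher and 1 lower in JP2CR, with a median of 0.84. Postn, the matricellular protein periostin of activated fibroblasts, had log2 fold changes of 3.14 ± 0.22 and 2.81 ± 0.22 (SE), and Col1a1, a chain of collagen I, had 1.19 ± 0.11 and 1.20 ± 0.11. Col1a2, the other collagen I chain, had 1.09 in WT and Col3a1, the chain of collagen III, 0.98 in JP2CR. Basement membrane proteins and laminin receptors, 22 genes, had 10 higher and 6 lower in WT (median 0.14) and 9 higher and 3 lower in JP2CR (median 0.19). Dmd, dystrophin, which links actin to the laminin receptor dystroglycan, had log2 fold changes of 0.88 ± 0.10 and 0.81 ± 0.10 (SE). Col4a5, a basement membrane collagen chain, had 0.48 and 0.42. Col4a3 had 1.48 in WT and Sgcd, delta-sarcoglycan of the dystrophin complex, 1.72 in JP2CR. The integrin adhesion machinery inside the cell, with 28 of 29 listed genes tested, had 5 higher and 2 lower in WT and 8 higher and 3 lower in JP2CR, with a median of 0.06 in both. Actn1, an actin crosslinker at adhesions, had 0.58 ± 0.09 and 0.60 ± 0.09 (SE), and Tln1, talin, which activates integrins, 0.42 in WT. Itgb1bp2, the muscle protein melusin that binds the Itgb1 tail, fell by 0.46 on the log2 scale in WT. Zyx, an adhesion protein that senses tension, had 0.53 and Fermt3, the integrin activator of blood cells, 0.90 in JP2CR. All of these named genes passed an adjusted p of 0.05 in the genotype given, and no gene of the 3 lists was called in the interaction.

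Promoter windows could be matched for 23 of the 37 chains, in 26 windows of the same length as those printed. The motif of SP1, GGGCGG, was found on either strand in 46.2% of these windows and in 35.7% of all 32851 windows in the table. TGANTCA, the AP-1 motif, was found in 11.5% of the windows of these chains and 7.81% of all windows, and GGAATG, the TEAD motif, in 11.5% and 14.7%. The CArG box of serum response factor was found in 7.69% and 1.63%, and TATAAA in 0% and 13.6%. These are counts of letters in a fixed window, and matches of different motifs may overlap.

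The authors' deposited table holds fold changes of its own for both TAC comparisons. At an adjusted p under 0.05, 12 chains were higher and 6 lower in WT in the authors' deposited table, and 14 were higher and 6 lower in JP2CR. All 17 WT calls made here were also made in the authors' deposited table, which had Itgb6 in addition. Of the 23 JP2CR calls made here, 20 were made in the authors' deposited table, the other ones being Itgal, Itga6 and Itga3.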

How the data were processed

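Polyadenylated RNA was made into stranded libraries with a TruSeq kit, per the labels' protocols. The deposited table holds whole-number counts per gene for 16 libraries, and, for both TAC comparisons, adjusted p-values and log2 fold changes computed by the authors; other columns of the authors' comparisons, deposited with text cells, were not used. Per the submitters' processing notes the mm10 build was used, with FastQC 1.0.0, STAR 2.5.0b, Picard 1.128, bedtools 2.17.0, DESeq2 1.6.3 and Cufflinks 2.2.1 in roles that are not stated. Which tool counted the reads, and with which annotation and strand setting, is not given in the sources used here. No row lacked a gene name and no column of counts lacked a sample.

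Counts were tested with edgeR 4.0.16 (limma 3.58.1, R 4.3.3) by the quasi-likelihood F test, after filterByExpr by group and TMM scaling, with 1 mean per group over all 16 libraries. P-values were Benjamini-Hochberg adjusted over all 13522 genes tested. The labels do not say which mouse gave which library, and the spread that the tests use is that between libraries. Tested on simulated data, the WT comparison recovered 80.6% of 1.5-fold, 98.5% of 2-fold and 100% of 4-fold changes, with 10 false calls among 13413 genes. Exon lengths came from GENCODE vM21 (GRCm38, the same assembly as mm10), in which all 37 chains were found by symbol. Promoter windows came from RefSeq (GRCm38.p6), searched for each motif on both strands.

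The values of 1 tested chain are not reported here, and it is included in the counts and medians. The members and the lists were chosen with earlier results of these data known. Values in every library are given for chains called after TAC with an absolute log2 fold change of at least 0.5 in either genotype, for any chain called between genotypes, and for the most abundant chains per length. From each list of other genes the 3 smallest p in each TAC comparison are named, and marker lists are given beside the results they move with. Alternatives were RLE and upper-quartile scaling, no filter, a filter of 1 CPM in 8 libraries, an adjusted p under 0.01, fits to the compared groups only, a replicate block, DESeq2 1.42.0 and the omission of each library. Omissions of the 3 libraries with Xist, of the 2 intermediate TAC libraries and of these 5 were added after the data were seen.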

Additional observations from a re-analysis of the deposited data

Results flagged for a closer look

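The values of each tested chain were checked in each group of 4 libraries for 1 library that stood apart from the other 3, in 132 groups in all, and 3 groups had one. Chance alone marks about 1 in 20 groups. Itgae was at 0.896 CPM in WT sham 3, against 0.208 to 0.310 CPM in the other WT sham libraries. Itgax was at 1.39 CPM in JP2CR TAC 3, against 1.94 to 2.02 CPM in the other JP2CR TAC libraries. Lama4 was at 141.6 CPM in WT sham 3, against 135 to 136 CPM in the other WT sham libraries.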

How the results depend on the processing

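The counts of chains called after TAC stayed within 1.5 times of those reported under every alternative run, in both genotypes and directions. Leaving out single libraries gave 10 to 12 chains higher and 5 to 7 lower in WT, and 12 to 17 higher and 7 lower in JP2CR. With the replicate block the counts were 12 and 6 in WT and 16 and 7 in JP2CR, with none called in the interaction; between genotypes after TAC the block called 1 chain lower, Itga9 in place of Itgb5 (adjusted p = 0.0423 and 0.0728 by edgeR). No pairing by replicate number was seen in the deviations from the group means, although a weak one could be missed. Same-numbered libraries of different groups correlated between -0.17 and 0.13, and libraries of other numbers between -0.24 and 0.23. Of 16 libraries, 2 correlated best with their own number. In the interaction, leaving out the 3 libraries with Xist called 1 chain lower, Itgb6. Between genotypes after TAC the same omission called 2 chains higher and 2 lower, and DESeq2 called 1 higher and 3 lower. That comparison called 2 chains lower when fitted to the compared groups only. It called 0 lower at an adjusted p under 0.01, with no filter, without the intermediate TAC libraries and without all 5 of these libraries, and 0 to 3 when single libraries were left out. The cause was not tested, except that the stricter threshold and the smaller sample are part of how these alternatives were built. No chain changed direction while called. Other scalings moved the median of all genes by at most 0.0101 on the log2 scale. The stricter filter removed Itgae, and without a filter Itgb8 had an adjusted p of 0.0424 in JP2CR on values near the floor. Depth limits the chains under about 1 CPM, and 4 libraries per group limit the comparison of the genotypes.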
